A study of Mus musculus with 7 samples.

Results

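Open chromatin was examined at the loci of 9 transcription factor genes of the developing cerebral cortex, Fezf2, Tbr1, Eomes, Bcl11a, Bcl11b, Cux1, Cux2, Pou3f2 and Pou3f3. They were taken from a fixed list of names out of 21883 protein-coding genes, and a locus is the gene span with 50 kb on either side. The material was L3mbtl3 knockout (L3mbtl3 -/-, 4 libraries) and wild-type (3 libraries) neural progenitors of CD-1 mouse embryos, sorted from the dorsal telencephalon for the surface carbohydrate CD15. The sample titles give the age as E14.5, a day of mid-neurogenesis in the mouse cortex. Another field of the labels gives the embryonic day without the fraction, and the titles were followed here. ATAC-seq was used, where a transposase tags accessible DNA with sequencing adapters, and the authors deposited 1 list of called peaks per library. The labels also mention heterozygous cells in a protocol worded alike for all libraries, but no library is labelled heterozygous. Nothing in the labels says whether the libraries came from separate embryos or litters, so p-values measure only the spread between these libraries.

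Neurons of the cerebral cortex are made in sequence from dorsal progenitors. Deep-layer neurons are born first and upper-layer neurons later, and each class switches on its own set of transcription factors. Fezf2, a zinc-finger factor, specifies neurons that project below the cortex, and Bcl11b acts downstream of it in the same cells. Tbr1, a T-box factor, marks the deepest layer, and its relative Eomes marks the intermediate progenitors that lie between radial glia and neurons. Bcl11a, a zinc-finger relative of Bcl11b, acts in deep-layer neurons as well. Cux1 and Cux2 are cut-homeobox factors of upper-layer neurons, and the POU factors Pou3f2 and Pou3f3 act together in the production and migration of upper-layer neurons. The product of L3mbtl3 carries malignant brain tumour domains, which read methylated lysines, and the series title names it as a partner of Polycomb repressive complex 1.

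An annotated promoter window runs from 250 bases before to 50 after a transcription start. Over protein-coding genes, 21.9% of those counted had a peak in at least 1 library. Of the 9 genes, Pou3f2 alone had a peak there. Its promoter sequence is therefore given with those of its paralogue Pou3f3 and of Eomes, neither of which had a peak there in any library. Each run holds the 250 bases before the transcription start, read 5′ to 3′ along the gene from RefSeq on GRCm38.p6, and capitals mark the CCAAT box, a common promoter element, on either strand.
Pou3f2 (chr4:22488367-22488616, minus strand): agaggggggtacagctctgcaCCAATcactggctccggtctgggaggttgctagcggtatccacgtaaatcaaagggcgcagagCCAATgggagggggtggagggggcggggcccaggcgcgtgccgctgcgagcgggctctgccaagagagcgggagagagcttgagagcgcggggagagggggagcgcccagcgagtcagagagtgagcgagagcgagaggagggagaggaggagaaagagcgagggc
Pou3f3 (chr1:42695518-42695767, plus strand): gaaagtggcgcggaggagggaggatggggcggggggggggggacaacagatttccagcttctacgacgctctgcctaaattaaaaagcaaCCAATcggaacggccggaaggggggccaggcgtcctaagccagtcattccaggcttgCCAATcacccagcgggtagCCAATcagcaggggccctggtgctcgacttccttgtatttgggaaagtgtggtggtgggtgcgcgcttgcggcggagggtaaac
Eomes (chr9:118477939-118478188, plus strand): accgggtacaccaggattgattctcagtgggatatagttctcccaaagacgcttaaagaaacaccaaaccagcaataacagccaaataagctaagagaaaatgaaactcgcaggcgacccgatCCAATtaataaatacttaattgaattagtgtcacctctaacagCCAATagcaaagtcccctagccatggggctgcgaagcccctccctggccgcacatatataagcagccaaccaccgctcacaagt

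The 3 runs hold 2, 3 and 2 CCAAT matches, in the order printed, and their G and C content is 66.8%, 60.8% and 46.4%. A CCAAT match occurs in 35.4% of the 21262 promoters of protein-coding genes in the same table, counted on both strands, and in 4 of the 9 genes here. The general E-box CANNTG, the core sequence bound by proneural factors, matched in 62.8% of all promoters and in 3 of the 9 genes, Tbr1, Bcl11a and Cux2. Its variants CAGCTG and CAGATG, which overlap CANNTG, matched in 12.1% and 12.4% of all promoters and in 0 of the 9. The homeodomain motif TAATTA matched in 4.30% of all promoters and, among the 9, in Tbr1 with 2 matches. The POU octamer ATGCAAAT matched in 1.58% of all promoters and in 0 of the 9. These matches describe letters in these windows and were chosen after the sequences had been looked at.

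The lists behind the values differed in length. Knockout lists held 9827, 7111, 3366 and 17362 peaks in libraries 1 to 4 and wild-type lists 7448, 11394 and 6458 in libraries 1 to 3. Knockout library 4 had the longest list and knockout library 3 the shortest. Read counts are not part of the lists, and the depth of the libraries is unknown. The targeted locus, L3mbtl3 on chromosome 10, held 1 peak in knockout library 4 and 1 in wild-type library 1 and none elsewhere, which does not check the genotype labels. Of the radial glia marker loci, 9 of 10 held a peak in at least 1 library, with Hes1 at 0, and all 10 together held 4 to 24 peaks per knockout and 7 to 13 per wild-type library. Of the intermediate progenitor loci 4 of 6 held a peak, with Eomes and Gadd45g at 0, and of the projection neuron loci 6 of 6. They held 1 to 8 and 3 to 8 peaks per knockout library and 2 to 3 and 1 to 8 per wild-type library. Among other cell types, 4 of 8 interneuron loci held a peak (3 to 6 peaks per knockout and 2 to 4 per wild-type library). Gad2 had a peak in all 7 libraries, 21 in total and every wild-type peak of this list, while Dlx5, Gad1, Nkx2-1 and Gsx2 had 0. A peak was also held by 4 of 4 endothelial loci (0 to 5 and 0 to 1) and 3 of 4 microglial loci (0 to 3 in either genotype, with Csf1r at 0). So did 2 of 4 meningeal loci (1 to 2 in either genotype, with Col1a1 and Lum at 0), of which Dcn had a peak in all 7 libraries, 10 in total. Of all protein-coding genes, 69.2% held a peak in at least 1 library, and the marker lists were not tested against that share. A peak near a gene is not a measure of its expression, and the part of such cells in the results was not tested. In sorted bulk material, fewer cells with an open region and a less open region per cell cannot be told apart.

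Taken over all 9 loci, the libraries held 47 peaks. The 4 knockout libraries held 7, 5, 6 and 14 and the 3 wild-type libraries 8, 5 and 2. The genotypes overlapped: the knockout mean was 8 ± 4.08 and the wild-type mean 5 ± 3 peaks (SD, n = 4 and 3), a difference of 3 peaks that fell to 1 without knockout library 4 and to 1.5 without wild-type library 3. Per 10000 peaks of the list, the knockout libraries held 7.12, 7.03, 17.8 and 8.06 and the wild-type libraries 10.7, 4.39 and 3.10. On that scale knockout library 3, with the shortest list, stood highest, and knockout library 4 was close to knockout libraries 1 and 2. Loci with at least 1 peak numbered 4, 4, 4 and 7 in the knockout libraries and 5, 4 and 2 in the wild-type libraries.

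**Figure D1:**
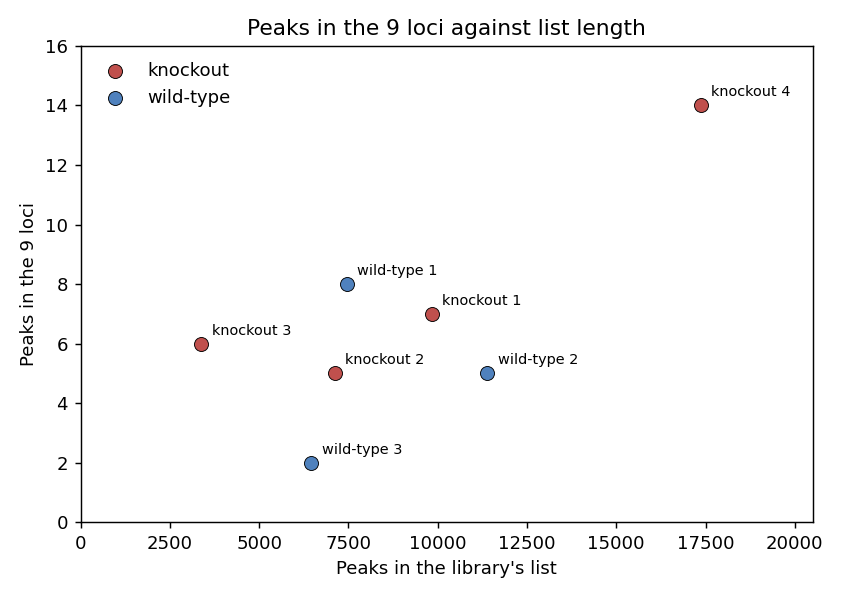
Peaks in the 9 loci (vertical axis) against the number of peaks in the whole list (horizontal axis), 1 point per library, red for knockout and blue for wild-type. Knockout library 4 lies apart at 14 peaks in a list of 17362, while knockout library 3 holds 6 in a list of 3366 and wild-type library 3 holds 2 in a list of 6458.

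The number of peaks differed between the loci. Fezf2 held 14 peaks over the 7 libraries, Bcl11a 12, Tbr1 7, Pou3f2 6, Cux2 and Pou3f3 3 each, and Bcl11b 2, while Eomes and Cux1 held none. Fezf2 and Tbr1 had a peak in every library, a pattern shown by 6.9% of the 21883 protein-coding genes. A locus without a peak in any library was found for 30.8% of all genes. Between neighbours in this order, such as Fezf2 and Bcl11a or Tbr1 and Pou3f2, the mean count differed by less than the spread between libraries. Span length differs widely among the 9, at 4443 bp for Pou3f3 and 319456 bp for Cux1. Genes were put into 10 classes of span length. Among the 2189 genes of the longest class, which holds Cux1 and Cux2, 8.27% had no peak and the median total was 7, against 0 for Cux1 and 3 for Cux2. For Fezf2, 1.60% of the 2187 genes of like length had at least as many peaks.

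**Figure D2:**
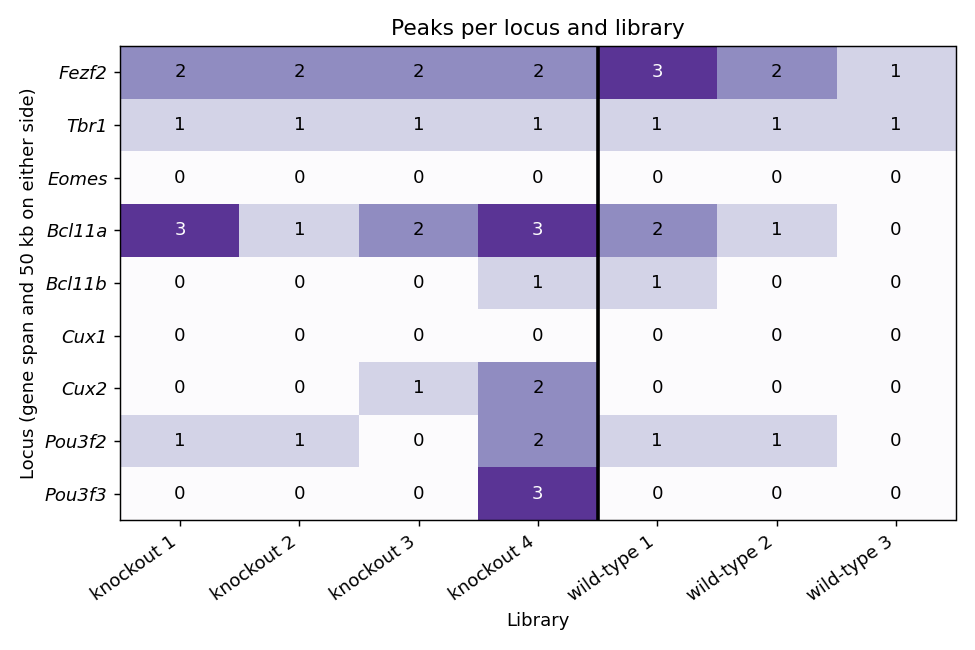
Number of called peaks in each locus (rows) and library (columns, 4 knockout libraries left of the line and 3 wild-type libraries right of it), with darker cells for more peaks. Fezf2 and Tbr1 are filled in every column, Eomes and Cux1 in none, and Pou3f3 in knockout library 4 alone.

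Peaks per locus were compared between genotypes for all 15150 protein-coding genes with at least 1 peak, which include 7 of the 9 genes. Mean counts were higher in knockout libraries for Bcl11a, Cux2, Pou3f2 and Pou3f3, lower for Bcl11b (a difference of −0.0833 peaks, and higher by 0.25 without wild-type library 1) and equal for Fezf2 and Tbr1. Some of these differences changed with 1 library left out. The Pou3f2 difference of 0.333 peaks was 0 without knockout library 4 and 0 without wild-type library 3. The Cux2 difference of 0.75 was 0.333 without knockout library 4, and Pou3f3 had no peak without it. The Fezf2 difference was 0.5 without wild-type library 1 and −0.5 without wild-type library 3. Over all genes tested, 58.6% had the higher mean in knockout and 37.8% in wild-type libraries. None of the 7 passed, nor did any other gene (0%, exact permutation test with Benjamini-Hochberg adjustment over all genes tested, every member's adjusted p = 1). At an unadjusted exact p under 0.05, 0 of the 7 and 0.33% of all genes were called. Counts did not overlap between genotypes in 0 of the 7, where 0.132% of all genes were higher and 0.211% lower in knockout libraries without overlap. With 4 against 3 libraries the smallest exact p is 0.0286, so a single gene at that p could not pass the adjustment on its own.

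The peaks of the 9 loci merged into 19 regions, with peaks joined where they overlapped by at least 1 bp. Of these, 6 were called in 3 or more libraries (31.6%, where the share over all 25623 regions was 35.1%), 2 in 2 libraries and 11 in 1 library (57.9%, where 48.4% of all regions were). Regions called in all 7 libraries numbered 2, or 10.5%, where the share over all regions was 5.06%. By position, 8 regions lay inside the span of the gene, 8 upstream of it and 3 downstream. No region separated the genotypes fully. Calls in all 4 knockout and no wild-type libraries were the pattern of 0.109% of all regions, and calls in all 3 wild-type and no knockout libraries that of 0.133%. A larger share of knockout than of wild-type libraries called 14 of the 19, and 7 of those 14 were called in knockout library 4 alone. Over all regions 54.5% had the larger share in knockout and 40.4% in wild-type libraries. In Fisher's exact test 0 of the 19 had an unadjusted p under 0.05, and 0% of all regions passed the Benjamini-Hochberg adjustment. With 4 against 3 libraries only full separation gives a p under 0.05, at 0.0286, so the first result restates that no region separated the genotypes. The regions at that p were too few for any to pass the adjustment, so the second could not have come out otherwise. Exons and introns were not told apart, since the gene table used here gives spans only.

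Fezf2 lies on the minus strand (chr14:12338992-12346803) and had 2, 2, 2 and 2 peaks in the knockout libraries and 3, 2 and 1 in the wild-type libraries. Each knockout library thus had the same count, and the wild-type libraries spread around it, with a mean of 2 ± 0 and 2 ± 1 (SD, n = 4 and 3, exact permutation p = 1). The peaks fell into 3 regions, 1 beyond the 3′ end of the gene and 2 far upstream of its start. None lay over the promoter window.

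The region beyond the 3′ end (chr14:12337805-12338678) began 314 bp past the end of the span and was called in all 7 libraries. Its peaks were 539, 285, 132 and 448 bp wide in knockout libraries 1 to 4 and 249, 128 and 558 bp in wild-type libraries 1 to 3. Fold enrichment over the peak caller's background, the authors' value for each peak, was 4.51, 4.63, 5.17 and 4.83 in the knockout lists and 4.81, 4.76 and 5.41 in the wild-type lists. Ranked by −log10 q within their own lists, these peaks stood at the 33.5, 32.6, 72.4 and 73.0 percentile in knockout libraries and at the 54.7, 49.2 and 83.0 percentile in wild-type libraries, so the ranks overlapped between genotypes. The calls were not of 1 shared stretch: no base was covered in all 7 libraries, and 5 of the 21 pairs of libraries had peaks that did not touch. Wild-type library 3 reached farthest toward the gene and did not touch wild-type libraries 1 and 2.

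The distal Fezf2 regions lay 43.4 and 47.7 kb upstream of the start, inside the span of Cadps, a gene of vesicle priming whose span covers this part of the window. The farther region (chr14:12393286-12393862) was called in 4 of 4 knockout and 1 of 3 wild-type libraries (Fisher's exact p = 0.143, adjusted p = 1). Knockout in every library and wild-type in at most 1 was the pattern of 0.593% of all regions. Its widths were 501, 224, 393 and 527 bp in knockout libraries 1 to 4 and 346 bp in wild-type library 1, with 188 bp covered in all 5. Their within-list percentiles were 44.4, 18.1, 9.17 and 83.1 in the knockout lists and 38.0 in the wild-type list, so knockout libraries 2 and 3 called it low in their lists.

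The nearer region (chr14:12389236-12389366), separated from the farther one by 3919 bp, was called in 0 of 4 knockout and 2 of 3 wild-type libraries (Fisher's exact p = 0.143, adjusted p = 1). It was chosen after its values were seen, and the share of all regions with this pattern was not counted. Calls in 2 or more libraries of either genotype were found for 51.6% of all regions. Wild-type libraries 1 and 2 called it with peaks of 97 and 125 bp at the 22.9 and 40.4 percentile. Wild-type library 1 called both distal regions, wild-type library 2 the nearer alone and wild-type library 3 neither.

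Fezf2 had the most peaks of the 9, and the genes whose counts per library were most like its own were found by the sum of absolute differences over the 7 libraries. A difference of 1 peak in all, the smallest, was found for 6 genes more than 1 Mb away. In alphabetical order the first 5 of them were Abhd17b, Edar, Fezf1, Lrif1 and Vmn1r233. Fezf1, the paralogue of Fezf2, had 2, 2, 2 and 2 peaks in knockout and 2, 2 and 1 in wild-type libraries. At least as many peaks in total as at Fezf2 were held by 4.41% of all protein-coding genes, and the likeness is a description.

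Tbr1 (chr2:61802863-61814114, plus strand) had 1 peak in each of the 4 knockout and 3 wild-type libraries. All of them fell into 1 region (chr2:61837276-61837628), 23162 bp beyond the 3′ end and 33.0 kb from the start, with no annotated gene over it. The widths were 257, 276, 126 and 353 bp in knockout libraries and 123, 338 and 102 bp in wild-type libraries. Fold enrichment was 4.88, 4.75, 3.77 and 6.08 in the knockout lists and 5.17, 4.58 and 4.53 in the wild-type lists. The percentiles were 53.5, 46.4, 14.4 and 89.2 in knockout libraries and 68.4, 43.3 and 65.0 in wild-type libraries, so the highest and the lowest were both from knockout libraries. Wild-type library 3 had a peak that did not touch those of knockout library 3 and wild-type library 1, and the other 19 of the 21 pairs overlapped. Every library thus had the same count (exact permutation p = 1), and the promoter had no call.

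Eomes (chr9:118478186-118486132, plus strand), the other T-box gene of the 9, had 0 peaks in all 4 knockout and all 3 wild-type libraries. It remained at 0 in every library with a window of 100 kb on either side. Among the 2187 genes of like length, 30.7% had no peak either. The lists hold only peaks past the authors' threshold, so a weaker signal at Eomes would not be seen in them.

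**Figure D3:**
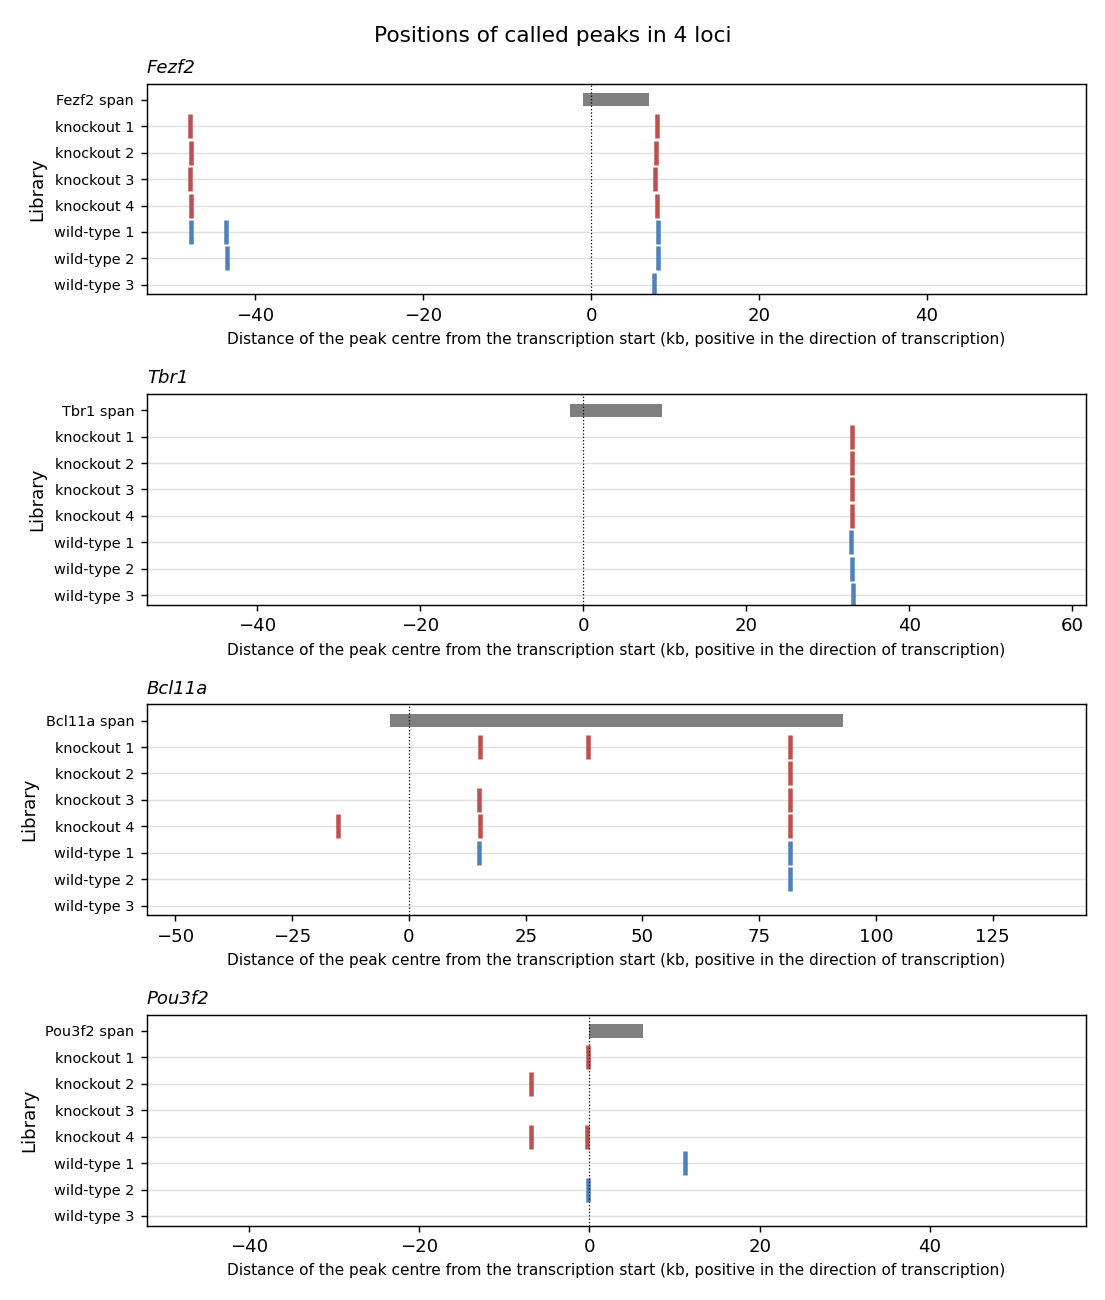
Centres of the called peaks along the Fezf2, Tbr1, Bcl11a and Pou3f2 loci, as distance from the annotated transcription start in kb (positive in the direction of transcription), with 1 line per library (red knockout, blue wild-type) and the gene span as a grey bar. The Fezf2 peaks near 8 kb and the Tbr1 peaks near 33 kb recur in all 7 libraries, and the Pou3f2 peaks at the start recur in 3.

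Bcl11a (chr11:24076564-24173558, plus strand) had 3, 1, 2 and 3 peaks in knockout libraries and 2, 1 and 0 in wild-type libraries. Wild-type library 3 stood lowest, and the genotypes overlapped at 1 and 2 peaks. The means were 2.25 ± 0.957 and 1 ± 1 (SD, n = 4 and 3), a difference of 1.25 peaks that did not pass the test (exact permutation p = 0.2, adjusted p = 1). It was 0.75 without wild-type library 3, 0.417 with every list held to its 3366 highest-ranked peaks and 0.0833 at a −log10 q of at least 3. Of its 4 regions 3 lay inside the span and 1, called in knockout library 4 alone, lay 10981 bp upstream of it inside the non-coding transcript A830031A19Rik.

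The region nearer the 3′ end of Bcl11a (chr11:24162150-24162447), 81.6 kb from the start, was called in 4 of 4 knockout and 2 of 3 wild-type libraries (Fisher's exact p = 0.429). It lies within the span of the long non-coding RNA 4930538E20Rik as well. Fold enrichment was 5.12, 4.08, 4.82 and 6.80 in knockout libraries 1 to 4 and 4.99 and 5.05 in wild-type libraries 1 and 2. The peak of knockout library 4, at the 95.3 percentile of its list, was the highest rank of any peak in the 9 loci, while that of knockout library 2 stood at the 7.37 percentile. All 15 pairs of callers overlapped, and 81 bp were covered in all 6.

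The region nearer the start (chr11:24095469-24096201), 15.1 kb from the annotated transcription start, was called in 3 of 4 knockout and 1 of 3 wild-type libraries (Fisher's exact p = 0.486). The widths were 143, 490 and 677 bp in knockout libraries 1, 3 and 4 and 413 bp in wild-type library 1. The percentiles were 46.3, 21.7 and 77.1 in those knockout lists and 24.7 in the wild-type list. A further region inside the gene, 38.3 kb from the start and 95 bp long, was called in knockout library 1 alone.

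Bcl11b (chr12:107910403-108004145, minus strand) is of nearly the same span length as its paralogue, at 93743 bp against 96995 bp for Bcl11a, and held 2 peaks in all. Knockout libraries had 0, 0, 0 and 1 and wild-type libraries 1, 0 and 0 (exact permutation p = 1). The peak of knockout library 4 (chr12:107934946-107935267) and that of wild-type library 1 (chr12:107928568-107928702) lay apart inside the gene, at the 17.1 and 2.56 percentile of their lists. No region of Bcl11b was thus called in more than 1 library, whereas Bcl11a had 2 that were. Among the 2188 genes of this length class the median total was 3 peaks.

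Cux1 (chr5:136248135-136567590, minus strand) had no peak in any library of either genotype, although its span is the longest of the 9. With a window of 100 kb it had 1 peak in knockout library 4. Cux2 (chr5:121857962-122050415, minus strand) had 0, 0, 1 and 2 peaks in knockout libraries and 0, 0 and 0 in wild-type libraries. The genotypes overlapped at 0, and the means were 0.75 ± 0.957 and 0 ± 0 (SD, n = 4 and 3, exact permutation p = 0.429, adjusted p = 1). The 3 peaks were 3 separate regions inside the gene, at 146, 101 and 16.7 kb from the start. The peak of knockout library 3 stood at the 32.5 percentile of its list, and those of knockout library 4 stood at the 1.84 and 16.2 percentile, near the threshold of the list.

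Pou3f2 (chr4:22482095-22488366, minus strand) had 1, 1, 0 and 2 peaks in knockout libraries and 1, 1 and 0 in wild-type libraries. Each genotype thus had a library without a peak, and the means were 1 ± 0.816 and 0.667 ± 0.577 (SD, n = 4 and 3, exact permutation p = 0.657, adjusted p = 1). The 6 peaks fell into 3 regions, at the start, upstream and downstream of the gene.

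The region at the Pou3f2 start (chr4:22488405-22488842) began 39 bp upstream of the span and was called in 2 of 4 knockout and 1 of 3 wild-type libraries. At the promoters of protein-coding genes with an entry in the table, 21.9% of the 17491 counted here had a peak in at least 1 library and 8.96% in at least 3. This total differs from the 21262 promoters searched for motifs. Within the promoter sequence printed above, counting bases from 1 at its 5′ end, the peaks covered bases 1 to 183 in knockout library 1, bases 1 to 46 in knockout library 4 and bases 14 to 212 in wild-type library 2. The 33 bases 14 to 46 were thus covered in all 3 callers, and the CCAAT match that begins at base 22 lies among them. The match that begins at base 85 was covered in knockout library 1 and wild-type library 2. Fold enrichment was 4.11 and 4.06 in the knockout lists and 4.72 in the wild-type list, at the 6.47 and 23.1 percentile in knockout and the 47.4 percentile in wild-type.

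Upstream of Pou3f2, a region 6789 bp from the span (chr4:22495155-22495290) was called in 2 of 4 knockout and 0 of 3 wild-type libraries (Fisher's exact p = 0.429). The callers were knockout libraries 2 and 4, with peaks of 121 and 92 bp at the 49.8 and 88.2 percentile. Downstream, wild-type library 1 alone had a peak 4892 bp past the gene, at the 12.5 percentile.

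Pou3f3 (chr1:42695768-42700210, plus strand) had 0, 0, 0 and 3 peaks in knockout libraries and 0, 0 and 0 in wild-type libraries. The knockout values thus came from library 4, whose list was the longest, with means of 0.75 ± 1.5 and 0 ± 0 (SD, n = 4 and 3, exact permutation p = 1). All 3 lay upstream, at 2.38, 4.03 and 46.9 kb from the start, within the span of the long non-coding RNA Pantr1, which flanks Pou3f3. Their percentiles were 44.8, 53.1 and 17.6. Without knockout library 4 this locus had no peak.

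**Figure D4:**
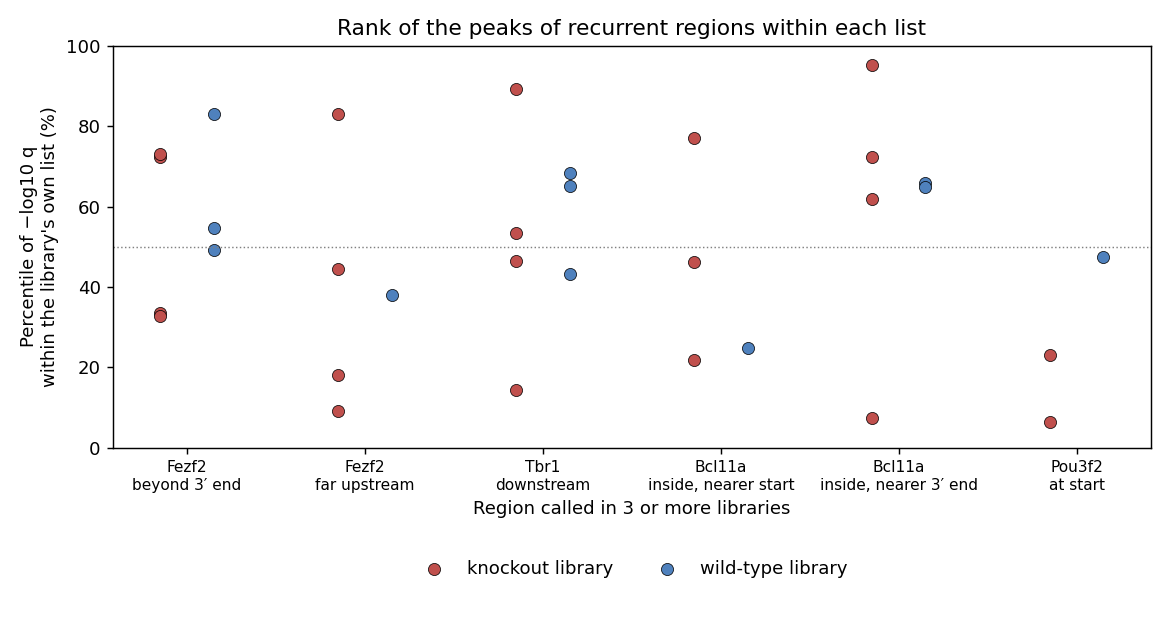
Rank of each peak by −log10 q within its own library's list, as a percentile (vertical axis, 100 for the highest), for the 6 regions called in 3 or more libraries, with red points for knockout and blue points for wild-type libraries. Ranks run from 6.47 to 95.3 and the genotypes overlap in every region but that at the Pou3f2 start, where the 1 wild-type point lies above the knockout points. The far upstream Fezf2 region and the Bcl11a region nearer the start also have only 1 wild-type point each.

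The peaks of the 9 loci had a median rank somewhat below the middle of their lists. Fold enrichment ran from 3.38 to 6.80 with a median of 4.58. Width ran from 92 to 677 bp with a median of 249 bp, where the median width of a whole list was 140 to 172 bp. The median within-list percentile was 44.4 over the 47 peaks, 48.3 over the 32 peaks of regions called in 3 or more libraries and 17.1 over the 11 peaks of regions called in 1. A −log10 q of at least 5 was reached by 1 of the 47 (2.13%), the Bcl11a peak of knockout library 4, whereas 9.98% of all peaks in the lists reached it. At a −log10 q of at least 3, 11 peaks were left, 1, 0, 0 and 6 in knockout libraries and 2, 1 and 1 in wild-type libraries. When every list was held to its 3366 highest-ranked peaks, the loci held 0, 0, 6 and 4 peaks in knockout libraries and 2, 0 and 2 in wild-type libraries. Knockout library 3, whose list was left whole, then stood highest.

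The window also set the counts. With 10 kb on either side, the 9 loci held 5, 3, 4 and 10 peaks in knockout libraries and 5, 3 and 1 in wild-type libraries, and Tbr1 had none. Fezf2 kept 1 peak in each library, that beyond its 3′ end. With 100 kb they held 7, 7, 6 and 22 peaks in knockout libraries and 10, 9 and 5 in wild-type libraries, and Tbr1 then had 1, 2, 1 and 4 in knockout libraries and 2, 2 and 2 in wild-type libraries.

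Other genes linked to projection neuron identity were examined in the same way, from a list of names. Of 30 such genes 27 had a peak in at least 1 library, 14 in at least 6 and 10 in all 7, against 7, 3 and 2 of the 9. Over all 21883 protein-coding genes these shares were 69.2%, 14.2% and 6.9%. Many of these 30 have long spans, so their counts cannot be set directly against those of the 9. The mean count was higher in knockout libraries for 17 and lower for 10, where 58.6% and 37.8% of all genes with a peak were. The median difference was 0.208 peaks per locus, against 0 for the 9 and 0 over all protein-coding genes. Of all protein-coding genes 30.8% had no peak and so a difference of 0, as had Nr2f1, Tshz3 and Tbx21 among the 30. In the exact permutation test 0 of the 30 passed the adjustment over all genes and 0 had an unadjusted p under 0.05. Summed over the 30, knockout libraries held 25 to 99 peaks and wild-type libraries 37 to 65.

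Those with a peak in at least 6 libraries were Sox5, Rorb, Foxp1, Foxp2, Etv1, Lmo4, Bhlhe22, Zfpm2, Tle4, Mef2c, Ldb2, Fezf1, Pou3f4 and Unc5d. Foxp2, a forkhead factor of deep-layer neurons, had 6, 2, 6 and 13 peaks in knockout libraries and 8, 10 and 1 in wild-type libraries. Sox5, which times the birth of deep-layer subtypes, had 6, 5, 3 and 11 in knockout and 6, 7 and 5 in wild-type libraries. In both the genotypes overlapped, with knockout library 4 highest.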

How the data were processed

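The 7 ATAC-seq libraries have 1 deposited peak list each, called per library. The submitters' processing notes name GRCm38, MACS2, Bowtie2 2.3.5.1, CASAVA 1.9, deepTools 3.3.0, FastQC 0.11.8 and SAMtools 1.9. The sources used here give no settings and do not say whether reads were shifted for the transposase. Per peak, the authors' columns are fold enrichment (a ratio over background), −log10 p and −log10 q, and a score that was not used. The smallest deposited −log10 q was 1.30 to 1.32 per list. Percentile ranks by q were taken within each list. Fixed thresholds on −log10 q were applied alike to all lists, and the range and median of fold were taken over peaks from all lists. Those values therefore cut across lists whose depth is unknown.

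Gene spans came from RefSeq GRCm38.p6, and strands and starts from its promoter table, which held all 9 genes. The start taken from it can lie inside the span, as at Bcl11a (chr11:24080695) and Tbr1 (chr2:61804453). Distances from the start run from that base to the centre of the region. A locus counted each peak that overlapped the span or the 50 kb on either side. Coordinates count from 1. The difference in mean count per locus, knockout minus wild-type, was tested by exact permutation (two-sided, 35 splits) for every gene with a peak and adjusted by Benjamini-Hochberg. Fisher's exact test (two-sided) was used for regions. The permutation script was tested on simulated data. Regions called in at least 3 libraries were named by rule, and those called less often were chosen after their values were seen. The 9 genes, the lists and the tests were chosen with earlier results of these data known. Alternatives were windows of 10 and 100 kb, stricter q, equal lists, other joining of peaks, scaling by list length, replicate pairs and leaving out each library. Python 3.11.15, NumPy 2.4.6, pandas 2.3.3, SciPy 1.17.1 and matplotlib 3.10.9 were used.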

Additional observations from a re-analysis of the deposited data

Results flagged for a closer look

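Within the 4 knockout libraries, 1 library lay far from the others in 4 measures, by the gap to its nearest neighbour relative to the range. Chance alone would mark about 1 in 20 such groups if the values were continuous and normally distributed, which these small counts are not. With 3 equal counts and 1 other, the ratio is always 1, its highest value, as at Pou3f3, at Bcl11b and for loci with a peak. The rate therefore does not hold for those, and 12 measures that share their peaks were examined. Knockout library 4 had 3 peaks at Pou3f3 where the other knockout libraries had 0, and 1 peak at Bcl11b where they had 0. It also had a peak in 7 of the 9 loci where the others had 4 each. Its list was the longest, at 17362 peaks, and the part of list length in these values was not tested. Per 10000 peaks of the list, knockout library 3 stood apart at 17.8 where the other knockout libraries lay between 7.03 and 8.06; its list was the shortest, at 3366 peaks.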

How the results depend on the processing

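No gene passed the adjusted permutation test under the 14 alternatives, but 7 of them leave out a library, where the smallest exact p is 0.1 (3 against 3) or 0.0667 (4 against 2), so that no gene could pass; these say nothing about stability. Of 86 values for single loci under the alternatives, 1 turned to the opposite sign: Bcl11b, −0.0833 peaks in the data as deposited, ranged from −0.333 without knockout library 4 to 0.25 without wild-type library 1. Many of the 86 could not turn. Those of Fezf2, Tbr1 and Cux1 (13, 12 and 1) started from a difference of 0. Cux2 and Pou3f3 had no wild-type peak, so leaving out a library could not turn them. Fezf2, at 0 in the data as deposited, was 0.5 without wild-type library 1, −0.5 without wild-type library 3 and 0.417 with equal lists. The lowest exact p of any of the 9 under an alternative was 0.2. The difference in loci with a peak, 1.08 in the data as deposited, was −0.0833 at −log10 q of at least 3 and ranged from 0.25 to 1.75 with each library left out. Regions called in all libraries of 1 genotype and none of the other numbered 0 to 1 with each library left out. The 1 region without wild-type library 1 was the farther distal Fezf2 region, and that without wild-type library 3 was the nearer one. The difference of 3 peaks over the 9 loci was 1.17 with equal lists and 0.417 under that stricter threshold. With the replicate block it was 1, and no gene passed; with 3 pairs the smallest p is 0.25. The labels share replicate numbers, but same-numbered libraries deviated together with a correlation over 15150 genes of −0.104, 0.115 and 0.304, and not every library correlated best with its own number, so the numbers were not taken as pairs. Depth is unknown, so a locus without a call may hold signal below the authors' threshold.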
